A study of Mus musculus with 6 samples.

Results

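Elastic fibre and microfibril genes were examined in mouse tumours derived from a cutaneous squamous cell carcinoma (cSCC) line, a cancer of skin keratinocytes, with or without Kindlin-1. The 10 genes taken by name were the fibrillins Fbn1 and Fbn2, elastin (Eln), the fibulins Fbln1, Fbln2 and Fbln5, the microfibril-associated genes Mfap2, Mfap4 and Mfap5, and Emilin1. All 10 were found among the 37991 genes counted, and all 10 passed the filter on low counts. The Kindlin-1 WT group and the Kindlin-1 Null group each held 3 bulk tumour RNA-seq libraries, and the comparison asked how expression differs when Kindlin-1, an integrin-activating adaptor at the inner face of the cell membrane, is knocked out. The strain, age, host, time of tumour collection and number of clones behind the knockout were not stated in the labels. WT libraries 1 and 2 share a mouse number in their titles, as do Null libraries 2 and 3, so a group of 3 libraries may hold 2 animals, and the p-values capture only the spread among these libraries, some of which may be technical. Values of a group are given in the order of libraries 1, 2 and 3, numbered as deposited. In bulk tumour RNA, fewer cells of a type and less RNA per cell cannot be told apart.

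Elastic fibres give skin and vessel walls their recoil. They consist of a core of crosslinked elastin laid onto a scaffold of microfibrils, which are polymers of fibrillin decorated with microfibril-associated proteins. Fibulins and EMILIN-1 sit at the interface of core and scaffold or tie the fibre to cells through integrins, and microfibrils also hold latent TGF-beta and BMPs in the matrix. In skin these proteins come mainly from fibroblasts, and in vessel walls also from smooth muscle cells.

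Reads assigned to genes ranged from 161711 in WT library 2 to 31487255 in Null library 2, so that a floor of 3 reads stood between 0.0953 and 18.6 CPM (counts per library size, scaled up to a common total). Fermt1, which encodes Kindlin-1, had 16, 2 and 1040 reads in the WT libraries and 0, 2 and 2 reads in the Null libraries. These are 12.5, 12.3 and 64.9 CPM against 0, 0.0634 and 0.393 CPM, which goes with the labels, though WT library 2 rests on 2 reads. WT library 3 stood well above the other WT libraries. Keratinocyte markers were scarce in all libraries, and the 11 markers summed to between 55.8 and 135 CPM. Krt1 had 0 reads in all 6 libraries, and Krt5 stood between 0 and 3.9 CPM. Krt14 stood between 5.12 and 45.3 CPM, and Krt8 between 0.0317 and 36.8 CPM. Krt8 had 10 reads in WT library 3 and 1 in Null library 2, the deepest library of each group. The 13 fibroblast markers summed to between 8571 and 18842 CPM. Of 11887 genes tested with edgeR's quasi-likelihood test, 419 (3.52%) were lower and 269 (2.26%) higher in Null tumours at a Benjamini-Hochberg adjusted p under 0.05.

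Upstream sequence was taken from RefSeq (build GRCm38.p6) for the gene whose fall kept its call under every setting tried, Fbn1, and for the only one of the 10 with a positive fold change in edgeR with all 6 libraries, Fbln5. The table used held 6 of the 10 genes. Each line gives the 250 bases before the annotated start, 5′ to 3′ on the gene's strand, and for Fbln5 the farther upstream of its 2 listed starts. Capitals mark matches to any of 6 motifs, searched on both strands, with overlaps allowed. The letters TGANTCA stood for the motif of AP-1 factors, and the letters CAGAC stood for that of SMAD factors. TEAD factors were represented by the letters GGAATG, and the TATA box was taken as the letters TATAAA. SP1 was represented by the letters GGGCGG, and the last motif was the CCAAT box, named for its own letters. The printed window of Fbn1 lies at chr2:125506439-125506688 and that of Fbln5 at chr12:101819120-101819369, with both genes on the minus strand.
Fbn1: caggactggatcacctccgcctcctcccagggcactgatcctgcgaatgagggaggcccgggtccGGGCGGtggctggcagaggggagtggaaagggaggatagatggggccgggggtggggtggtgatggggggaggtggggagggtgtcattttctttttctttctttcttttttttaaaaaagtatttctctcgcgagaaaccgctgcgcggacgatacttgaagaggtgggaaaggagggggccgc
Fbln5: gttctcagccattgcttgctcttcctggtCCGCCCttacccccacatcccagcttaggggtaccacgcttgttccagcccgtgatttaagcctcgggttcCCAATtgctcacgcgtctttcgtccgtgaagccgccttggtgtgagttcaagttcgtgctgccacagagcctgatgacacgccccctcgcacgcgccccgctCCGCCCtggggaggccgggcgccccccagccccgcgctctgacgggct
The Fbn1 window held 1 match to GGGCGG, starting 185 bases before the start, and the Fbln5 window held 2, at 221 and 48 bases, and 1 match to CCAAT at 150 bases. Over all 32851 windows of this length in the table, GGGCGG was present in 32.7% and CCAAT in 33.8%. The AP-1, SMAD, TEAD and TATA motifs, present in 6.75%, 42.2%, 12.6% and 12.4% of windows, had no match in either printed window. The window before the other listed start of Fbln5, at chr12:101818485-101818734, held 2 matches to CAGAC, at 199 and 15 bases, and 0 to the other 5 motifs. A match describes the letters only, and the libraries hold no measure of binding.

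Across the 10 genes, 4 fell in Null tumours (Fbn1, Mfap4, Eln and Mfap5), 0 rose and 6 did not pass the test (edgeR), against the 3.52% and 2.26% of all tested genes called lower and higher. At an unadjusted p under 0.05, 7 of the 10 were lower and 0 higher, against 13% and 12.1% of all tested genes. DESeq2 called 5 of the 10 lower and 0 higher, against 3.12% and 2.3% of the 12722 genes it tested. The median log2 fold change of the 10 genes was -1.32, beside 0.01 over all tested genes. All 3 Null values lay below all 3 WT values for 7 of the 10 genes, an arrangement that held for 14.3% of all tested genes. All 3 Null values lay above the WT values for 1 gene, Fbln5, an arrangement that held for 16.2% of tested genes. The genes were chosen with earlier results of these data known, so the counts describe them and support no statement about other lists.

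**Figure D1:**
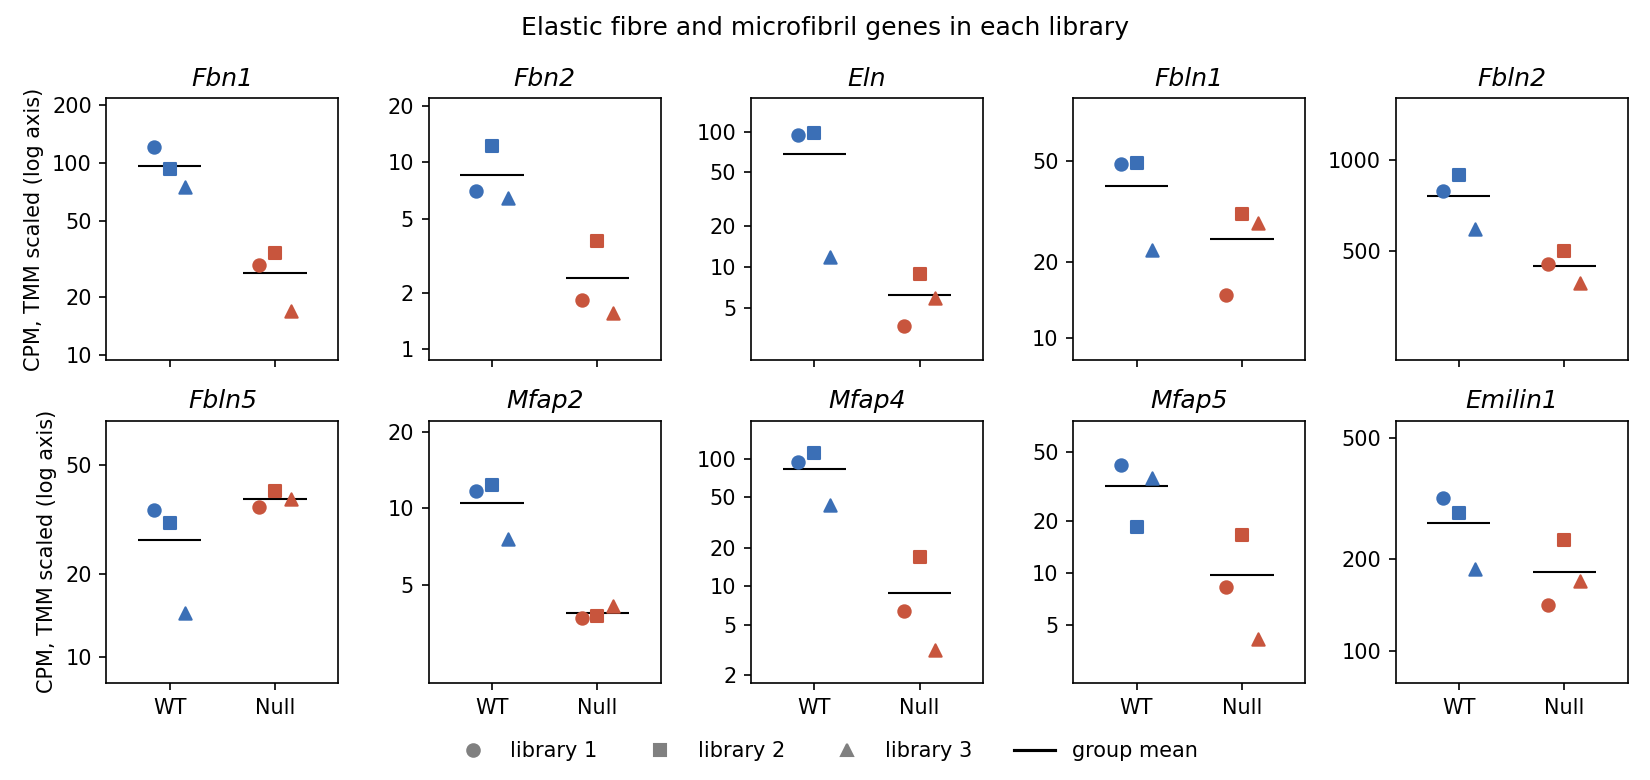
Level of each of the 10 genes in each library, in CPM after TMM scaling on a log axis that differs between panels; blue points are WT and red points Null libraries, shapes mark libraries 1 to 3 and black lines the group means. For Fbn1 the Null libraries sit between 16.9 and 33.9 CPM, all under the lowest WT library at 74.6 CPM, while WT library 3 stands apart from WT libraries 1 and 2 for Eln.

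The fibrillins form the backbone of the microfibril. Fbn1, the main fibrillin of adult tissue and the gene mutated in Marfan syndrome, stood at 120, 92.2 and 74.6 CPM in WT tumours and at 29.5, 33.9 and 16.9 CPM in Null tumours. Every Null library lay under every WT library. Fbn1 fell 3.56-fold, to a mean of 26.8 ± 8.83 CPM against 95.7 ± 23 CPM in WT (SD, n = 3; log2 fold change -1.83, SE 0.32, edgeR adjusted p = 0.0061). The call was kept in all 13 alternative analyses, with adjusted p values between 0.000114 and 0.0417, and the log2 fold change lay between -2.13 and -1.56 when 1 library was left out. In a later annotation 20.1% of the exon bases of Fbn1 lie under a gene on the opposite strand, Gm9913, which had 0 reads in all 6 libraries. Fbn2, the fibrillin most abundant during development, had 9, 2 and 103 reads in the WT libraries and 2, 120 and 8 in the Null libraries. These are 7.03, 12.3 and 6.43 CPM against 1.84, 3.8 and 1.57 CPM. The groups did not overlap, but the 2 reads of WT library 2 allow anything from 1.49 to 44.4 CPM (95% exact Poisson interval, counting error only), and the log2 fold change of -1.37 (SE 0.53) did not pass the test (edgeR adjusted p = 0.133).

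The ratio of the fibrillins within a library does not depend on how libraries are scaled. Fbn2 reads were 0.0584, 0.133 and 0.0861 times the Fbn1 reads in the WT libraries and 0.0625, 0.112 and 0.093 times in the Null libraries. The groups overlapped fully, and the mean log2 ratio was -3.51 ± 0.6 in WT and -3.53 ± 0.43 in Null tumours (SD, n = 3; exact permutation p = 1, two-sided, and 1 after adjustment over the 2 ratios tested; 3 against 3 libraries cannot go below 0.1).

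Eln encodes tropoelastin, the monomer of the elastic core. It stood at 93.7 and 98.3 CPM in WT libraries 1 and 2, which share a mouse number, but at 11.8 CPM in WT library 3. The Null libraries stood at 3.68, 8.94 and 5.9 CPM. The groups did not overlap, yet WT library 3, the deepest of its group with 189 Eln reads, lay nearer to the Null libraries than to the other WT libraries. Eln fell 8.27-fold in the edgeR fit (log2 fold change -3.05, SE 0.68, edgeR adjusted p = 0.0276). Its mean was 6.18 ± 2.64 CPM in Null against 67.9 ± 48.7 CPM in WT tumours (SD, n = 3), and the fitted fold is not the ratio of these means. An opposite-strand gene, Gm30003, covers 3.3% of the Eln exon bases and was not analysed here. The log2 fold change was -2.05 without WT library 1 and -3.75 without WT library 3. The call was lost without WT library 1 (adjusted p = 0.113), WT library 2 (0.0601), Null library 1 (0.107) or Null library 3 (0.11). Summing same-numbered libraries in both groups (0.337) or in WT only (0.0595) ended it too, and it did not hold with no low-count filter (0.15, all edgeR) or under a random mouse effect (limma-voom, adjusted p = 0.373, log2 fold change -1.24).

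The product of Mfap4, a microfibril-associated gene, binds both tropoelastin and fibrillin. Mfap4 stood at 93.7, 111 and 43.4 CPM in the WT libraries, and the Null libraries stood at 6.45, 17.1 and 3.15 CPM. Even the lowest WT library was over the highest Null library, and Mfap4 fell 7.36-fold in the edgeR fit (log2 fold change -2.88, SE 0.53, edgeR adjusted p = 0.0102). Its mean was 8.9 ± 7.3 CPM in Null against 82.6 ± 35 CPM in WT tumours (SD, n = 3), again not in the ratio of the fitted fold. In the later annotation 4.63% of its exon bases lie under Mapk7 on the opposite strand, which had 41, 5 and 451 reads in WT and 17, 957 and 173 in Null libraries, beside 120, 18 and 695 and 7, 540 and 16 reads of Mfap4. The log2 fold change was -4.23 without Null library 2, the highest of its group. The call was lost without Null library 1 (edgeR adjusted p = 0.0721) and under a random mouse effect (limma-voom, adjusted p = 0.261, log2 fold change -1.78).

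Mfap5 and Mfap2 encode the paired glycoproteins MAGP-2 and MAGP-1, which bind fibrillin along the microfibril. Mfap5 stood at 42.2, 18.4 and 35.2 CPM in the WT libraries, and the Null libraries stood at 8.29, 16.5 and 4.13 CPM. The gap between the groups was narrow: WT library 2, with 3 reads (3.8 to 53.9 CPM, 95% exact Poisson interval), was the lowest of WT, and Null library 2 was the highest of its group. Mfap5 fell 3.42-fold in the edgeR fit (log2 fold change -1.77, SE 0.45, edgeR adjusted p = 0.0394), with a mean of 9.62 ± 6.27 CPM against 31.9 ± 12.2 CPM in WT (SD, n = 3). The call was lost without WT library 1 (adjusted p = 0.0643), WT library 3 (0.111), Null library 1 (0.141) or Null library 3 (0.106), with same-numbered WT libraries summed (0.0517, all edgeR) and under a random mouse effect (limma-voom, 0.275). Leaving out Null library 2 gave a log2 fold change of -2.69. Mfap2 stood at 11.7, 12.3 and 7.55 CPM in WT libraries against 3.68, 3.77 and 4.13 CPM in Null libraries, so that the groups did not overlap and the Null values were close together. Its log2 fold change of -1.27 (SE 0.44) did not pass (edgeR adjusted p = 0.102), with 15, 2 and 121 reads behind the WT values and 4, 119 and 21 behind the Null values. The reads of Mfap5 were 3.6, 1.5 and 4.66 times those of Mfap2 in the WT libraries and 2.25, 4.36 and 1 times in the Null libraries. The ratios overlapped between groups (log2 means 1.55 ± 0.86 and 1.1 ± 1.06, SD, n = 3; exact permutation p = 0.6, two-sided, adjusted p = 1 over the 2 ratios).

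Fbln2, a fibulin that binds elastin and fibrillin-1 and was the member with the most reads, stood at 790, 891 and 589 CPM in the WT libraries, and the Null libraries stood at 450.5, 499 and 390 CPM. The groups did not overlap, but the log2 fold change of -0.75 (SE 0.27) did not pass (edgeR adjusted p = 0.112). It passed without WT library 3 (-0.93, edgeR adjusted p = 0.03) and in DESeq2 (adjusted p = 0.0498). Fbln1, found in elastic fibres and basement membranes, overlapped between groups, with 48.4, 49.1 and 22.2 CPM in the WT libraries against 14.7, 30.8 and 28.3 CPM in the Null libraries (log2 fold change -0.46, SE 0.37, edgeR adjusted p = 0.465). Its log2 fold change was -0.00 without WT library 1, -0.9 without WT library 3 and 0.02 under a random mouse effect (limma-voom, adjusted p = 0.983).

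Fbln5, which bridges elastin, the crosslinking enzyme LOXL1 and cell-surface integrins, was the only gene of the 10 with a positive fold change in edgeR with all 6 libraries. It stood at 34.4, 30.7 and 14.5 CPM in the WT libraries, and the Null libraries stood at 35, 40.2 and 37.4 CPM. The Null values were close together and lay just above the highest WT value. That gap is within counting error: WT library 1 had 44 reads (25 to 46.1 CPM, 95% exact Poisson interval) and Null library 1 had 38 (24.8 to 48 CPM). WT library 2 rested on 5 reads (9.97 to 71.7 CPM). The log2 fold change of 0.7 (SE 0.35) did not pass the test (edgeR adjusted p = 0.231) and was 0.16 without WT library 3 and 1.23 without WT library 1. Under a random mouse effect it passed (limma-voom log2 fold change 1.16, adjusted p = 0.0461), but not with same-numbered libraries summed in both groups (0.72, edgeR adjusted p = 0.392) or in WT only (0.74, 0.232). Set against Fbn1 in the same library, Fbln5 reads were 0.286, 0.333 and 0.194 times the Fbn1 reads in the WT libraries and 1.19, 1.18 and 2.21 times in the Null libraries. This ratio, chosen after its values were seen and therefore not tested, was 5.52-fold higher in Null tumours on the log2 mean and did not overlap between groups.

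Emilin1, an elastin-microfibril interface glycoprotein, stood at 317, 283 and 186 CPM in the WT libraries, and the Null libraries stood at 141, 232 and 170 CPM. The groups overlapped, since Null library 2 exceeded WT library 3, and the log2 fold change of -0.51 (SE 0.29) did not pass (edgeR adjusted p = 0.29).

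**Figure D2:**
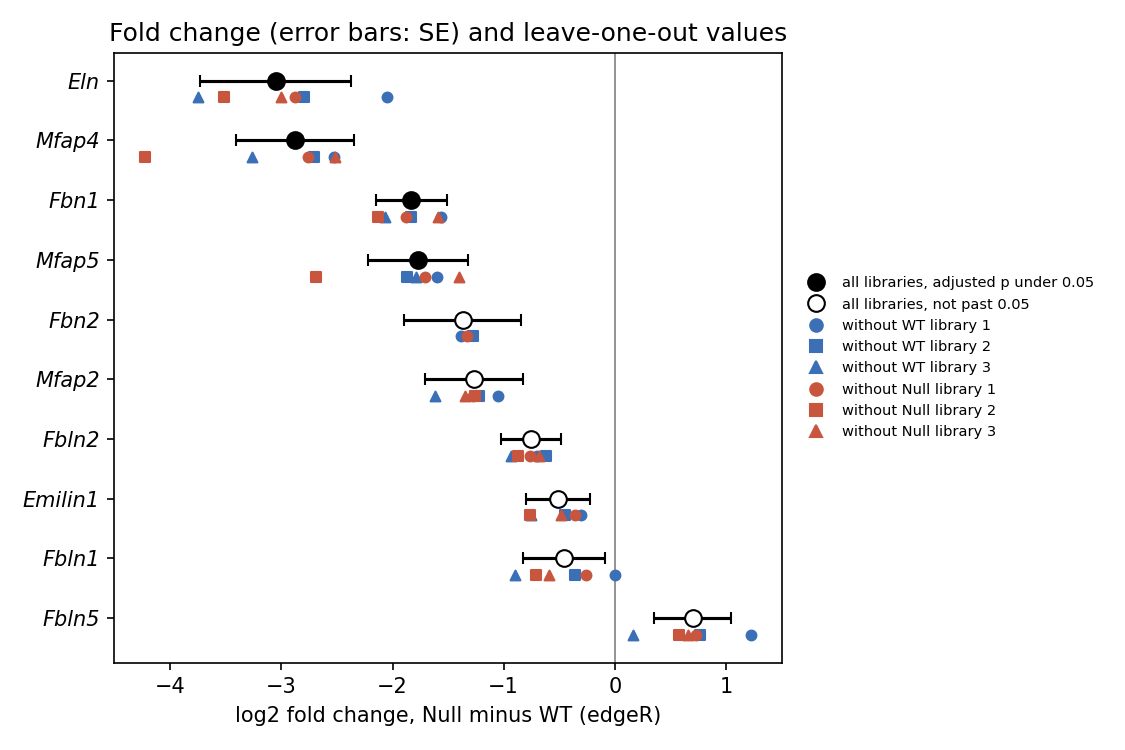
Log2 fold change, Null minus WT, of each gene in edgeR's quasi-likelihood test with all 6 libraries (large points, bars are SE, filled where the adjusted p was under 0.05) and with 1 library left out (small points, colour and shape give the library). Fbn1 stays between -2.13 and -1.56, whereas Eln ranges from -3.75 to -2.05 and Mfap4 from -4.23 to -2.52.

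WT library 3 was the lowest WT library for 9 of the 10 genes, the exception being Mfap5, whose lowest WT value was in library 2. The 13 fibroblast markers were also lowest there, at 8571 CPM against 14130 and 15147 CPM in the other WT libraries, and stood between 17249 and 18842 CPM in Null tumours. The 9 smooth muscle and pericyte markers summed to 443 CPM in WT library 3, 713 and 936 CPM in the other WT libraries, and 392 to 482 CPM in Null libraries. Every other list described below also had its lowest WT sum in library 3. Endothelial markers summed to 146 CPM there against 217 and 227 CPM in WT libraries 1 and 2. Immune cell markers summed to 742 CPM against 1418 and 1456 CPM. The low values of WT library 3 were thus not particular to the 10 genes or to fibroblast and smooth muscle markers. WT library 3 also had the largest share of reads in no gene, 12% against 7.15% and 8.75% in WT libraries 1 and 2. In the Null libraries this share was 5.84%, 5.55% and 4.63%. Reads with several alignments made up 40% in WT library 3 against 34.1% and 35.9% in WT libraries 1 and 2. A link between these shares and the low values was not tested. The part of cell composition in the values of these genes was not tested.

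To compare genes with each other, CPM was divided by exon length in kilobases (RPKM). Fbln2 had the highest level in both groups, at 119 ± 24.1 RPKM in WT and 70 ± 8.58 RPKM in Null tumours, followed by Emilin1 at 53 ± 13.8 and 36.6 ± 9.39 RPKM (SD, n = 3). In WT tumours Mfap4 came next at 43 ± 18.2 RPKM, and its range overlapped that of Emilin1. Fbln1 (9.14 ± 3.51), Mfap5 (8.9 ± 3.4), Mfap2 (8.68 ± 2.13), Eln (8.39 ± 6.01) and Fbn1 (7.89 ± 1.9 RPKM) followed, and each overlapped its neighbour in this order. Fbln5 (3.84 ± 1.53 RPKM) and Fbn2 (0.649 ± 0.244 RPKM) were the lowest, without overlap with the gene ranked just above them. In Null tumours the order below Emilin1 was Fbln1 (5.64 ± 1.98), Fbln5 (5.43 ± 0.376), Mfap4 (4.63 ± 3.8), Mfap2 (3.19 ± 0.196), Mfap5 (2.68 ± 1.75) and Fbn1 (2.21 ± 0.728 RPKM), each overlapping the next, and then Eln (0.763 ± 0.326) and Fbn2 (0.182 ± 0.0921 RPKM), which did not overlap the gene above.

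Fbln2 made up 45.9% ± 4.21 of the summed RPKM of the 10 genes in WT and 53.7% ± 5.04 in Null tumours, Emilin1 20.3% ± 1.49 and 27.7% ± 3.3, and Fbln5 1.42% ± 0.27 and 4.19% ± 0.505 (SD, n = 3). Mfap4 made up 15.8% ± 3.3 in WT and 3.28% ± 2.13 in Null tumours, and Eln 2.89% ± 1.81 and 0.568% ± 0.165. The shares are parts of a whole and given without a test. The summed RPKM was 297, 306 and 184 in the WT libraries and 119, 159 and 116 in the Null libraries. Exon length matters most for Eln, whose annotated exons cover 8098 bases in union but 3853 bases in the longest transcript. With the latter its level was 17.6 ± 12.6 RPKM in WT, at rank 4, and 1.6 ± 0.684 RPKM in Null tumours, at rank 9 as before. In Null tumours its range then overlapped that of Fbn1, the gene ranked just above, which it did not with the union length.

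**Figure D3:**
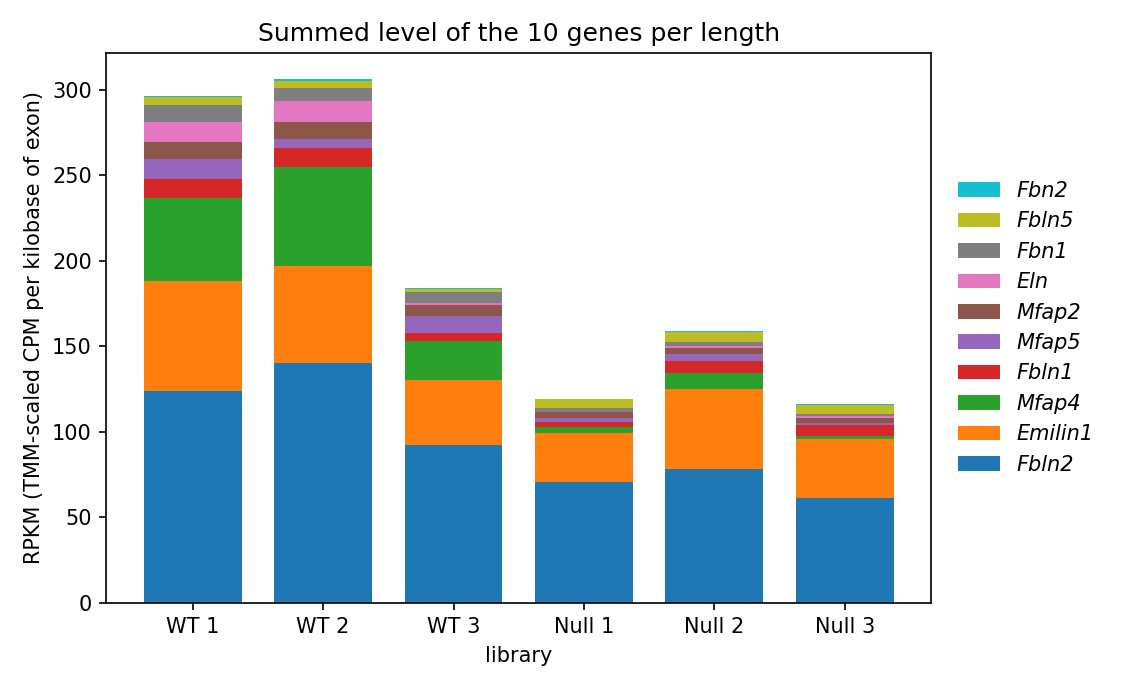
Summed level of the 10 genes per library, in RPKM from TMM-scaled CPM and union exon length; each colour is 1 gene and each bar 1 library. The bars reach 184 to 306 RPKM in WT and 116 to 159 RPKM in Null libraries, and the mean of Mfap4 is 43 RPKM in WT and 4.63 RPKM in Null libraries.

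Further genes of elastic fibre biology were taken as fixed lists. Over all tested genes 3.52% were called lower and 2.26% higher in edgeR, and 3.12% and 2.3% in DESeq2. At an unadjusted p under 0.05 in edgeR the shares were 13% and 12.1%, and several list counts below lie near such shares. Of 18 other components of elastic fibres and microfibrils, 14 were tested, of which 3 fell, 1 rose and 10 did not pass (median log2 fold change -0.59). Emilin3 and Mmrn1 had 0 reads in all libraries. Ltbp2, a fibrillin-binding relative of the latent TGF-beta binding proteins, fell to 5.43 ± 3.28 CPM against 29.3 ± 1.59 CPM in WT (SD, n = 3; log2 fold change -2.37, SE 0.47, edgeR adjusted p = 0.0135). Bgn, the small proteoglycan biglycan, fell to 78.3 ± 64.8 CPM against 524 ± 198 CPM in WT (log2 fold change -2.68, edgeR adjusted p = 0.0118), and Tnxb, the matrix glycoprotein tenascin-X, fell to 1.78 ± 0.187 CPM against 9.38 ± 6.79 CPM in WT (-2.36, edgeR adjusted p = 0.0414). Dcn, the related proteoglycan decorin and the most abundant of the list, rose to 3243 ± 359 CPM against 1200 ± 390 CPM in WT (1.44, edgeR adjusted p = 0.0255). Without Null library 1 the calls of Ltbp2 (edgeR adjusted p = 0.0666), Bgn (0.0654), Tnxb (0.116) and Dcn (0.0887) were lost. Bgn also lost its call without WT library 3 (0.0614), Tnxb without WT library 1 (0.171; log2 fold change -1.45) or WT library 2 (0.0567), and Dcn without WT library 2 (0.0598) or Null library 3 (0.0659). Leaving out Null library 2 gave log2 fold changes of -3.22 for Ltbp2 and -3.65 for Bgn. Ltbp2 (0.0891), Bgn (0.169) and Tnxb (0.0738) lost their calls under a random mouse effect (limma-voom), where the log2 fold changes of Ltbp2 and Tnxb were -1.71 and -1.54. Summing same-numbered libraries in both groups ended the calls of Tnxb (edgeR adjusted p = 0.076) and Dcn (0.092), and summing them in WT only did so too (0.0596 and 0.0607). Bgn was not called without a low-count filter (edgeR, 0.0792), nor Tnxb in DESeq2 (adjusted p = 0.0665).

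Of 19 assembly and crosslinking genes, 14 were tested, of which 2 fell and 0 rose (edgeR; 6 lower and 0 higher at an unadjusted p under 0.05, 1 and 0 in DESeq2; median log2 fold change -0.65). Adamtsl3, of a family of secreted proteins that bind the matrix, fell to 43 ± 14.4 CPM against 135 ± 36 CPM in WT (SD, n = 3; log2 fold change -1.54, SE 0.3, edgeR adjusted p = 0.0126). Adamts10, a metalloproteinase that binds fibrillin-1, fell to 26.9 ± 5.02 CPM against 52.4 ± 20.7 CPM in WT (-1.15, SE 0.29, edgeR adjusted p = 0.0382), though its groups overlapped. Adamtsl3 lost its call without Null library 1 (edgeR adjusted p = 0.0692) or Null library 3 (0.0531). Adamts10 lost its call without WT library 3 (0.156) or any 1 Null library (0.101, 0.0804 and 0.176 without Null libraries 1, 2 and 3), with same-numbered libraries summed in both groups (0.104) and in DESeq2 (0.0722). The most abundant of the list was Fkbp10, a chaperone of collagen and tropoelastin, at 254 ± 15.4 and 175 ± 36.2 CPM (-0.53, edgeR adjusted p = 0.215). Lox, which crosslinks elastin and collagen, stood at 33.8 ± 3.21 CPM in WT and 9.76 ± 6.79 CPM in Null tumours and did not pass (-1.78, edgeR adjusted p = 0.0667). It passed without Null library 2 (-2.58, edgeR adjusted p = 0.0285), and its log2 fold change was -1.27 without Null library 3 and -1.16 under a random mouse effect (limma-voom, adjusted p = 0.532). Loxl1, the crosslinking enzyme partnered with fibulin-5, stood at 176 ± 33.3 and 175 ± 66.8 CPM (edgeR adjusted p = 0.999). Lox and Loxl1 were named after their values were seen.

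Of 11 elastin-degrading proteases, 8 were tested, and 1 fell and 0 rose (edgeR; 3 lower and 0 higher at an unadjusted p under 0.05, 1 and 0 in DESeq2; median log2 fold change 0.05). Mmp7 and Elane, neutrophil elastase, had 0 reads in all libraries. Ctsk, the elastolytic cathepsin K, fell to 11.2 ± 5.52 CPM against 35.4 ± 12.3 CPM in WT (SD, n = 3; log2 fold change -1.76, SE 0.42, edgeR adjusted p = 0.0295). Its call was lost without WT library 1 (edgeR adjusted p = 0.0749), Null library 2 (0.0804) or Null library 3 (0.118), and with same-numbered libraries summed in both groups (0.0679) or in WT only (0.05 after rounding). Ctsb, cathepsin B, the most abundant of the list, stood at 2304 ± 718 and 3327 ± 336 CPM (0.53, edgeR adjusted p = 0.314).

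Among 13 receptors for elastin and microfibrils, 10 were tested, of which 2 rose and 1 fell (median log2 fold change -0.04). Lgals3, the most abundant of the list and a galactoside-binding lectin, rose to 825 ± 292 CPM against 322 ± 80.9 CPM in WT (SD, n = 3; 1.38, edgeR adjusted p = 0.031), and Sdc4, the heparan sulfate proteoglycan syndecan-4, rose to 434 ± 97 CPM against 205 ± 28.3 CPM in WT (1.06, edgeR adjusted p = 0.0395). Itga5, the alpha chain of the fibronectin receptor, fell to 126 ± 6.88 CPM against 234 ± 58.4 CPM in WT (-0.93, edgeR adjusted p = 0.0494). The call of Itga5 was lost whichever library was left out (edgeR adjusted p between 0.0565 without WT library 2 and 0.178 without Null library 3). Lgals3 lost its call without WT library 2 (0.0538), WT library 3 (0.0624), Null library 1 (0.113) or Null library 3 (0.076). Sdc4 lost its call without every library but WT library 3, with adjusted p values up to 0.135. Summing same-numbered libraries in both groups ended the calls of Itga5 (edgeR adjusted p = 0.172), Lgals3 (0.059) and Sdc4 (0.191), as did summing them in WT only (0.0606, 0.0599 and 0.0923), and Itga5 was not called without a low-count filter (0.0604).

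Of 7 TGF-beta family ligands that are stored on microfibrils, 5 were tested, of which 1 rose and 1 fell (median log2 fold change 0.36). Tgfb2 stood at 16.4, 18.4 and 21.1 CPM in the WT libraries, and the Null libraries stood at 60.8, 57.4 and 54.1 CPM. The groups were far apart, and Tgfb2 rose 2.97-fold (log2 fold change 1.57, SE 0.26, edgeR adjusted p = 0.00545), a call kept in all 13 alternative analyses. Tgfb3, the most abundant of the list, fell to 126 ± 31.6 CPM against 335 ± 121 CPM in WT (SD, n = 3; -1.39, SE 0.32, edgeR adjusted p = 0.0283). Its call was lost without WT library 1 (edgeR adjusted p = 0.0766), WT library 2 (0.0598), Null library 1 (0.12) or Null library 3 (0.0883), and with same-numbered libraries summed in both groups (0.0838) or in WT only (0.062).

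Markers of the cell types a tumour can hold were read from the same fit, in which 3.52% of all tested genes were lower and 2.26% higher. Of 13 fibroblast markers, all tested, 2 rose and 2 fell (median log2 fold change 0.09). Of 7 tested smooth muscle and pericyte markers 3 fell and 0 rose (edgeR; 4 and 0 at an unadjusted p under 0.05, 2 and 0 in DESeq2; median -1.15). The 3 were Cspg4 (log2 fold change -3.38), Des (-3.61) and Notch3 (-1.82, edgeR adjusted p = 0.0398). Cspg4 and Des kept their calls in all 13 alternative analyses. Notch3 kept its call in 2 of the 12 in which it was tested. It lost the call whichever library was left out (edgeR adjusted p between 0.0618 and 0.164) and in DESeq2. Of 8 tested endothelial markers 0 changed in edgeR, at an unadjusted p under 0.05 or in DESeq2 (median 0.15). All 9 tested skeletal muscle markers fell (median -3.61), with a summed level of 415 to 1203 CPM in WT and 29.1 to 94.4 CPM in Null tumours. Of 3 tested adipocyte markers 2 fell (median -3.55; summed level of all 8 markers 72.8 to 213 CPM in WT and 33.4 to 86.6 CPM in Null tumours). Of 9 tested immune cell markers 1 rose and 1 fell (median 0.34), and of 6 tested keratinocyte markers 1 fell (median 0.08). The other 4 smooth muscle and pericyte markers did not pass (log2 fold changes of 0.04 for Acta2, -0.19 for Mcam, -0.31 for Rgs5 and -1.15 for Tagln), nor did the adipocyte marker Fabp4 (-0.5). Over the marker lists 18 genes were called lower, the sign of Fbn1, Mfap4, Eln and Mfap5, and 3 higher. Beside the 9 skeletal muscle, 3 smooth muscle and pericyte and 2 adipocyte markers, the lower calls came from 3 other lists. They were the fibroblast markers Col1a2 (-1.61) and Thy1 (-1.62), keratinocyte Krt14 (-2.04) and immune Itgax (-1.76). The higher calls were the fibroblast markers Lum (2.92) and S100a4 (1.26) and immune Cma1 (1.93). Of the 13 fibroblast markers 6 had a negative log2 fold change. Their sum, 8571 to 15147 CPM in WT and 17249 to 18842 CPM in Null tumours, rested mostly on Col3a1 and S100a4. The part of these cell types in the 4 falls was not tested.

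**Figure D4:**
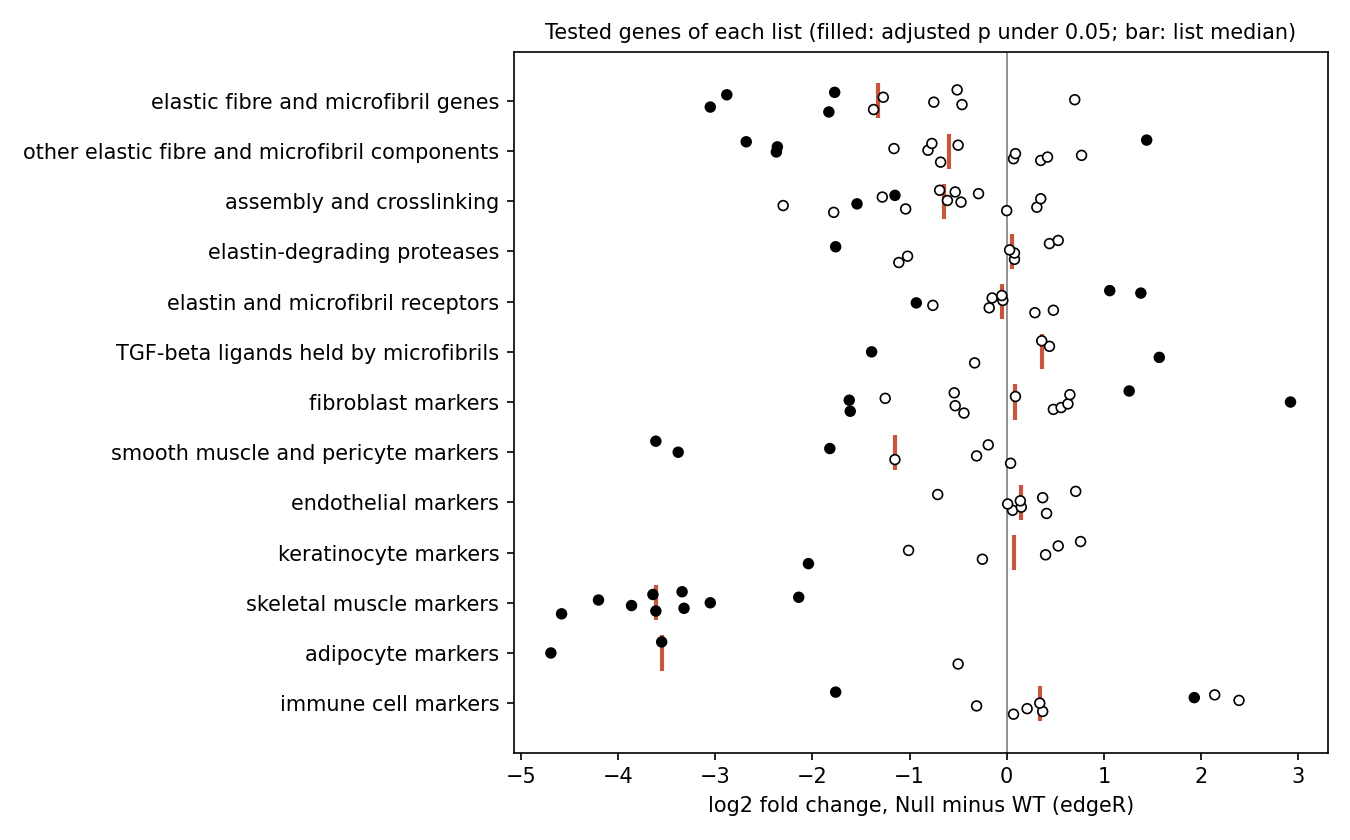
Log2 fold change, Null minus WT, of each tested gene of the elastic fibre and microfibril genes, the further elastic fibre lists and the cell type marker lists (filled points, edgeR adjusted p under 0.05; red bars, list medians). The median is -1.32 for the elastic fibre and microfibril genes, -3.61 for skeletal muscle markers and 0.09 for fibroblast markers.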

How the data were processed

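RNA-seq read counts of 6 tumour libraries (3 Kindlin-1 WT, 3 Kindlin-1 Null) were used as deposited: whole-number counts per Ensembl mouse gene, not normalized by the authors. Per the submitters' processing notes, TopHat2, Cuffdiff, DESeq2 and the build mm9 were used, with no version or role. The counting program, annotation and strand setting were not given in the sources used here, so reads of overlapping antisense genes cannot be told apart. The 5 lines of reads assigned to no gene stayed out of library sizes and tests. They held 4.63% to 12% of reads in no gene, 1.72% to 2.11% ambiguous reads and 32.9% to 40% reads with several alignments per library. Symbols were matched by Ensembl identifier to a later GENCODE annotation (32919 of 37991 identifiers, 86.6%), which also gave exon lengths.

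Null and WT were compared in R 4.3.3 with edgeR 4.0.16 (quasi-likelihood test, robust, TMM scaling, default expression filter) over 11887 genes, with Benjamini-Hochberg adjustment at 0.05 over all of them. The test was checked on simulated data with independent libraries and the same dispersion for all genes. The check therefore does not cover libraries that share an animal or genes with a wider spread. Log2 fold changes are Null minus WT, SE is the fold change over the root of F, and CPM is TMM scaled. Fold changes of genes come from the fit and can differ from the ratio of the mean CPM of the groups. Libraries in a group were numbered in the order of deposit, which pairs nothing. The 13 alternatives were other size factors, DESeq2 1.42.0, other filters, leaving out each library, summing libraries of 1 mouse number in both groups or in WT only, and a random effect of mouse number (limma 3.58.1, voom). The last changes method and mouse effect together, and these were not separated. WT library 2 had 161711 reads and WT library 1 had 1283566, so the summed WT pair rests mostly on library 1. That setting is thus close to leaving out WT library 2. The file name of Null library 3 carries another mouse number than its title. Genes and lists were chosen with earlier results of these data known. All 10 genes are named, and of each further list the genes past the threshold and the most abundant by mean CPM. Intervals cover counting error only, as reads carry no molecular identifiers.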

Additional observations from a re-analysis of the deposited data

How the results depend on the processing

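Of the 10 genes, the number called lower was 4, and between 1 and 4 with 1 library left out (edgeR): 2 without WT library 1 or Null library 3, and 1 without Null library 1. It was 2 with same-numbered WT libraries summed and 1 under a random mouse effect (limma-voom), where 1 gene, Fbln5, was called higher and Fbln1 turned to 0.02. With same-numbered libraries summed in both groups or in WT only, Fbln5 was not called (edgeR adjusted p = 0.392 and 0.232). The number called higher was 0 in all other settings. At an unadjusted p under 0.05, 7 of the 10 genes were lower and 0 higher, against 13% and 12.1% of all tested genes. DESeq2 called 5 lower and 0 higher, against 3.12% and 2.3% of the genes it tested. Over all genes 269 were called higher and 419 lower, with ranges of 59 to 421 and 120 to 434 when 1 library was left out (421 and 434 without WT library 1, 81 and 200 without WT library 3, 59 and 120 without Null library 1, 88 and 137 without Null library 3). The number called higher was 165 with same-numbered WT libraries summed and 641 under a random mouse effect, where lower calls made up 44.6% of calls against 60.9%, and the share was 50.8% without WT library 1 and 71.2% without WT library 3.

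For the further elastic fibre lists, with 14, 14, 8, 10 and 5 genes tested, 8 genes were called lower and 4 higher. With 1 library left out the ranges were 1 to 6 and 1 to 3. The counts were 3 and 1 with same-numbered libraries summed in both groups, and 4 and 1 with this done in WT only. For the marker lists, with 13, 7, 8, 6, 9, 3 and 9 genes tested, 18 were called lower and 3 higher. With 1 library left out the ranges were 12 to 18 and 1 to 4. Under a random mouse effect 9 were lower, and 1 was higher with same-numbered WT libraries summed. Over all tested genes 3.52% were called lower and 2.26% higher in edgeR with all 6 libraries. Those calls also moved when 1 library was left out, from 120 to 434 lower and from 59 to 421 higher. Over 26 named genes and their alternatives, a call was lost in 75 cases and gained in 4. Loxl1, at a log2 fold change of 0.00, lay between -0.32 and 0.25 with 1 library left out (-0.03 without WT library 2 or Null library 3, -0.14 without WT library 3, -0.32 without Null library 2), at -0.01 with RLE size factors and in DESeq2, -0.03 with the stricter filter and with same-numbered WT libraries summed, -0.08 with this done in both groups, and -0.15 under a random mouse effect. Leaving out a library gives fewer samples and other genes tested. What else moved the counts was not tested.

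The difference of the log2 ratio of Fbn2 to Fbn1 was -0.01 and ranged from -0.31 to 0.29 with 1 library left out (0.29 without WT library 2, 0.22 without Null library 1). That of Mfap5 to Mfap2 was -0.45 and ranged from -0.97 to 0.1 (0.1 without Null library 3). No paired analysis was possible because the labels give no replicate numbers that the groups share. Depth limits genes with few reads: with 1 library left out, Fbn2 (244 reads in all) and Tnxb (171 reads) were each tested in 3 of 6 fits.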
